A study of Mus musculus with 12 samples.

Results

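Gene expression was compared between 3 RNA-seq libraries of a follicular helper T (Tfh) cell culture started from OT-II mice, Tfh_OTII, and 3 libraries of a wild-type T helper 1 (Th1) cell culture, Th1_WT. These were 6 of the 12 libraries of the series, chosen by their titles. Of 35492 gene symbols, 19927 were kept, namely those with a mean of at least 1 scaled TPM (TPM is a transcript's length-corrected share of its library, and scaled TPM is TPM divided by a size factor) in 1 of the groups and not on chromosome Y. Tfh_OTII cells came from spleen and lymph nodes of OT-II mice, which carry a transgenic T cell receptor for an ovalbumin peptide. The naive CD4+ cells were cultured with IL-6 and IL-21, each at 50 ng/ml, and with antibodies at 10 µg/ml that block IL-4, IFNγ and TGFβ. Th1_WT cells were naive CD4+ cells of wild-type mice cultured with IL-12 at 10 ng/ml and the IL-4 blocking antibody at 10 µg/ml. Another group, Tfh_WT (3 libraries), consisted of wild-type cells given the Tfh cytokines and antibodies, and its values stand beside named genes. Mice were C57BL/6J aged 7 weeks, the culture plates were coated for CD3 and CD28 stimulation, and RNA came from 300000 cells. Titles give 48 h for Tfh_OTII and 24 h for Th1_WT and Tfh_WT, whereas the protocol text gives 48 h for the cultures. Mouse genotype, cytokines, blocking antibodies and titled time all differ between Tfh_OTII and Th1_WT, so their contributions cannot be told apart. Levels of chromosome Y genes differed as well (given near the end), and the labels give no sex.

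Tfh cells help B cells make antibody. IL-6 and IL-21 signal through the transcription factor STAT3, and Tfh cells are known for the repressor BCL6, the chemokine receptor CXCR5, the checkpoint receptor PD-1 and secretion of IL-21. Th1 cells form when IL-12 activates STAT4 and the factor T-bet, and they secrete IFNγ, which acts back on the cells of a culture. Naive T cells stimulated through CD3 and CD28 leave quiescence, grow and then divide.

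Several features of whole libraries moved with the groups. The 12 satellite-like gene models, which lie in tandem repeats, held 0.0873 to 0.458% of TPM in Tfh_OTII and 33.7 to 62.3% in Th1_WT. Symbols listed at 0 made up 9.92 to 23.9% in Tfh_OTII and 19.5 to 41.4% in Th1_WT, and size factors were 1.06 to 1.44 in Tfh_OTII and 0.472 to 0.668 in Th1_WT. Mitochondrially encoded genes held 2.36 to 2.69% of TPM in Tfh_OTII and 0.336 to 1.89% in Th1_WT. Lars2, a mitochondrial leucyl-tRNA synthetase gene, held 3.73 to 4.64% in Tfh_OTII, and 14.5, 0.142 and 0.241% in the Th1_WT libraries, of which replicate 1 stood apart. Trav14, the alpha variable family of the OT-II receptor, held 86 ± 2.12% of alpha variable TPM in Tfh_OTII and 12.5 ± 2.05% in Th1_WT (SD, n = 3 each). Its beta variable family, Trbv12, held a smaller share, 35.5 ± 0.666% of beta variable TPM in Tfh_OTII and 5.98 ± 2.43% in Th1_WT. Both had the direction the labels give. Spearman correlations over genes were 0.925 to 0.942 within Tfh_OTII, 0.852 to 0.886 within Th1_WT and 0.773 to 0.832 between the groups. The files carry no counts, so sequencing depth is unknown. The part these features have in the differences below was not tested.

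Of 19927 genes, 4688 (23.5%) were called at an adjusted p under 0.05 (limma), with 2772 (13.9%) higher and 1916 (9.62%) lower in Tfh_OTII. These shares, 13.9% higher and 9.62% lower, are the background for every list count against Th1_WT below. In these bulk samples, fewer cells of a type and less RNA per cell cannot be told apart. The median log2 fold change of all genes tested was 0.043. With TPM as deposited, without scaling, that median was 0.866, a shift of 0.823, and the calls were 9783 higher and 283 lower. The higher share of calls was thus 59.1% with scaling and 97.2% without it. All changes below are on log2(scaled TPM + 1), a scale that understates the change of genes at low levels, and relative to that shift. Errors of log2 fold changes are the SE of the limma fit, whose spread is pooled over all 12 libraries and moderated across genes. The groups were not equally variable, with a median SD over genes of 0.303 in Tfh_OTII and 0.465 in Th1_WT.

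**Figure D1:**
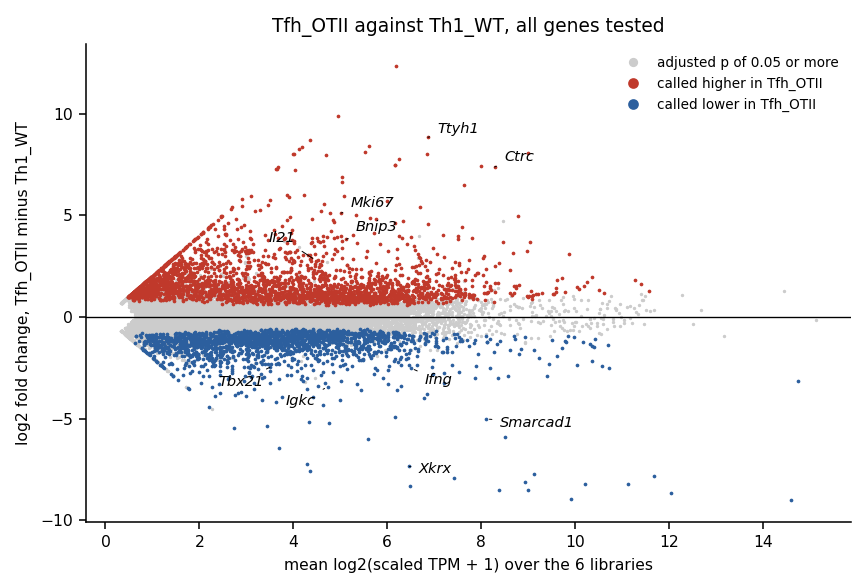
Log2 fold change of Tfh_OTII minus Th1_WT for the 19927 genes tested (vertical axis) against the mean log2(scaled TPM + 1) (horizontal axis), with genes called higher in red (2772), called lower in blue (1916) and not called in grey. Labelled genes reach from 8.83 for Ttyh1 to -7.35 for Xkrx.

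**Figure D2:**
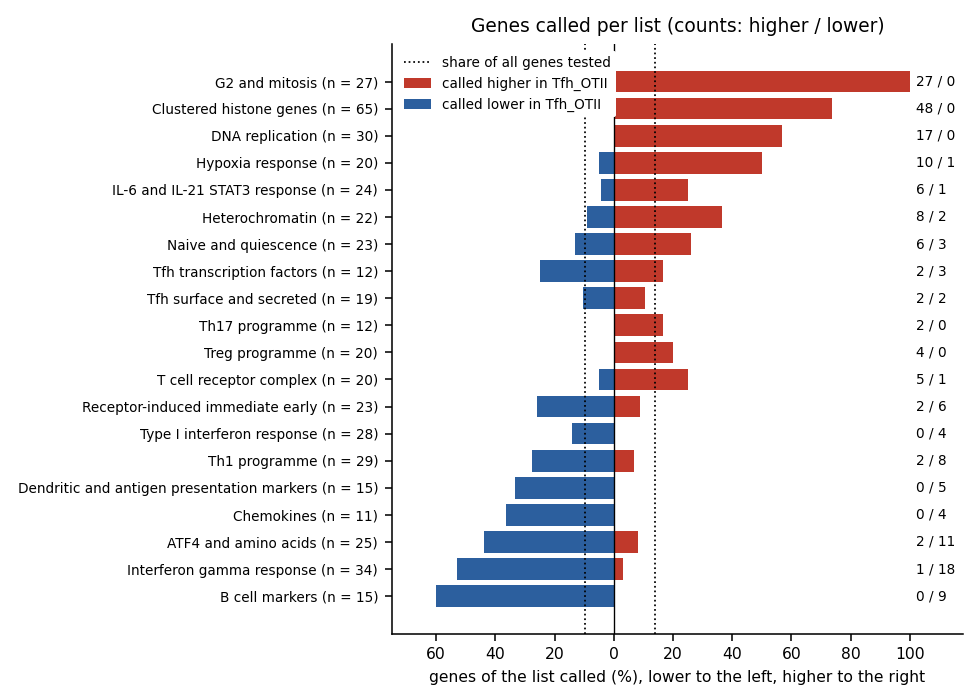
Share of each of 20 gene lists called higher (red, to the right) or lower (blue, to the left) in Tfh_OTII against Th1_WT, in % of the members tested (n in brackets), with the counts at the right edge. Dotted lines mark the shares of all genes tested, 13.9% higher and 9.62% lower. All 27 mitotic genes lie to the right, and 18 of 34 interferon gamma genes lie to the left.

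Genes of mitosis were higher in Tfh_OTII. All 27 tested genes of G2 and mitosis rose, against 13.9% of all genes, with a median log2 fold change of 3.28 (4.2 as deposited). Their summed level was 1530, 2007 and 2386 scaled TPM in the Tfh_OTII libraries (lowest, median and highest) and 108.5, 198.8 and 230.9 in the Th1_WT libraries. None of the 27 overlapped between the groups (19.3% of all genes were higher without overlap), and 27 were called with any 1 of the 6 libraries left out. In Tfh_WT, which shares its titled time with Th1_WT, the sum lay between them, at 794.2, 999.0 and 1105.

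Mki67, which encodes the proliferation marker Ki-67 (chromosome 7, 135689784 to 135716361, minus strand, GRCm38), had 144.2, 197.3 and 236.6 scaled TPM in Tfh_OTII and 1.38, 7.08 and 7.73 in Th1_WT. The lowest Tfh_OTII library lay far above the highest Th1_WT library, and the log2 fold change was 5.11 ± 0.45, adjusted p = 8.89e-06. Tfh_WT libraries had 61.3, 61.8 and 44.2, again in between. Cenpf, a kinetochore protein gene, had 45, 57.1 and 72.7 in Tfh_OTII and 2.82, 3.72 and 3.3 in Th1_WT, without overlap (3.77 ± 0.24, adjusted p = 8.43e-07). Birc5, whose product survivin belongs to the chromosomal passenger complex, had 82.2, 112.1 and 145.3 in Tfh_OTII and 4.95, 7.88 and 7.39 in Th1_WT, also without overlap (3.87 ± 0.26, adjusted p = 1.65e-06). The spindle motor gene Kif11 rose by 4.12 ± 0.33 on the log2 scale and the mitotic cyclin gene Ccnb1 by 3.64 ± 0.27. Cdc20, an activator of the anaphase-promoting complex, and Aurka, a centrosomal kinase gene, had the smallest changes of the list, at 1.88 and 1.88.

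Against Tfh_WT, 4 of the 27 mitotic genes rose in Tfh_OTII, compared with 0.577% of all genes, and the median of the list was 0.9. The contrasts against Th1_WT and Tfh_WT share the Tfh_OTII libraries. Cenpf had 12, 13.1 and 12.1 scaled TPM in Tfh_WT, and its log2 fold change against Tfh_WT was 2.12 ± 0.24, adjusted p = 0.00137. It was the only mitotic gene still called (1 of 27) without Tfh_OTII replicate 3, Tfh_WT replicate 2 or Tfh_WT replicate 3, while 2 were called without Tfh_WT replicate 1 and 10 without Th1_WT replicate 1. The others called with all libraries were Ccnb1, Cenpe, a kinetochore motor gene, and Hmmr, a spindle protein gene, with log2 fold changes of 1.30 ± 0.27, 1.78 ± 0.33 and 1.20 ± 0.21.

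DNA replication genes had the same sign with smaller differences. All 30 had a positive log2 fold change, with a median of 1.21, and 17 rose, against 13.9% of all genes. The counts were 9 higher without Tfh_OTII replicate 3, 10 higher without Tfh_OTII replicate 2 and 11 higher without Th1_WT replicate 1. Lig1, the ligase that joins Okazaki fragments, had 239.1, 329.7 and 359.6 scaled TPM in Tfh_OTII and 14, 33.5 and 55.6 in Th1_WT, without overlap (3.31 ± 0.39, adjusted p = 8.77e-05). Rrm2, a subunit of ribonucleotide reductase, had 82.2, 104.8 and 127.1 in Tfh_OTII and 3.62, 23.2 and 24.7 in Th1_WT (2.87 ± 0.50, adjusted p = 0.00154). Mcm5, a subunit of the replicative helicase, had 64.6, 69.8 and 81.8 in Tfh_OTII and 24.1, 89.2 and 102.5 in Th1_WT. These values overlapped and Mcm5 was not called (0.24 ± 0.43, adjusted p = 0.714), although it was called higher as deposited (1.34, adjusted p = 0.0202). Th1_WT replicate 1, the library with 14.5% of TPM in Lars2, was the lowest for Lig1, Rrm2 and Mcm5.

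Promoters were read from RefSeq (GRCm38.p6) as the 250 bases before each annotated start, and both strands were searched. The pattern TTTNNCGC (N is any base) was searched as a loose form of the E2F site, read by factors that drive S phase genes. This pattern was found in 7 of 29 promoters (24.1%) of 24 matched replication genes. It was present in 1 of 25 promoters (4%) of 23 matched mitotic genes, and in 4.28% of all 32851 promoters. The sequences shown are those of Mcm7 (chr5:138171884-138172133, minus strand), a helicase subunit gene with a match, and of Cdk1 (chr10:69352913-69353162, minus strand), the mitotic kinase gene and the single mitotic gene with a match. Capitals mark the matches, and the last capitals begin 165 bases before the start in Mcm7 and 29 bases before it in Cdk1.
Mcm7: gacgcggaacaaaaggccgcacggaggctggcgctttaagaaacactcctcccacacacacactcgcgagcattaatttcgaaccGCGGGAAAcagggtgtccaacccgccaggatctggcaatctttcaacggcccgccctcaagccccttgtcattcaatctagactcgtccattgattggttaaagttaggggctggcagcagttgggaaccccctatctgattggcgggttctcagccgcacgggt
Cdk1: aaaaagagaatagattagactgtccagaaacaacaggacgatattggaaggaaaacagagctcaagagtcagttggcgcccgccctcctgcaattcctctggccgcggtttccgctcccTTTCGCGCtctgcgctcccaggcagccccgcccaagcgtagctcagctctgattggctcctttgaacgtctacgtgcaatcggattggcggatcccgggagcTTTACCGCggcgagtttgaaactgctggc
Cdk1 had 101.4, 126.3 and 134.6 scaled TPM in Tfh_OTII and 0.516, 24.1 and 18 in Th1_WT, without overlap and with Th1_WT replicate 1 far below the others (3.75 ± 0.75, adjusted p = 0.00366). Mcm7 had 156.2, 206.7 and 247.4 in Tfh_OTII and 26.5, 98.4 and 93.8 in Th1_WT (1.66 ± 0.41, adjusted p = 0.012). A match describes the letters and says nothing of binding.

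Clustered histone genes, whose transcripts accumulate in S phase, were grouped after their values were seen. Of 65 tested, 48 rose and 0 fell, against 13.9% and 9.62% of all genes, with a median of 2.4. Their summed level was 9713, 11868 and 14430 scaled TPM in Tfh_OTII (lowest, median and highest) and 833.9, 2350 and 4002 in Th1_WT. Hist1h2bm, an H2B gene, had 335.2, 403.7 and 509.8 in Tfh_OTII and 3.15, 28.6 and 31.2 in Th1_WT (4.70 ± 0.59, adjusted p = 0.000141). Histone genes include near-identical copies, so the division of reads among them is uncertain.

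**Figure D3:**
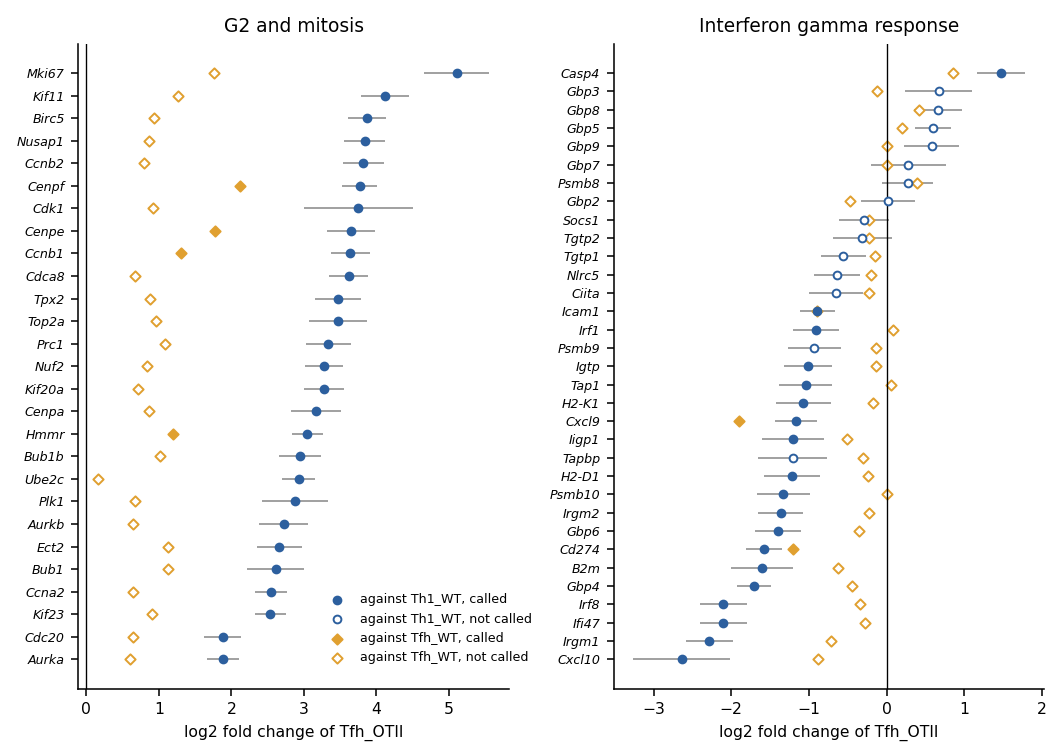
Log2 fold change of Tfh_OTII for each gene of the G2 and mitosis list (left) and for all but 1 gene of the interferon gamma response list (right), against Th1_WT (blue circles, with SE bars) and against Tfh_WT (orange diamonds, without error bars), filled where called. Against Th1_WT the mitotic genes run from 1.88 to 5.11, and the interferon genes from -2.64 for Cxcl10 to 1.47 for Casp4.

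Genes listed for the Tfh programme were called in both directions, the surface and secreted ones at shares near those of all genes. Il21, the cytokine gene most tied to Tfh cells (chromosome 3, 37222759 to 37232636, minus strand), had 46.3, 60.8 and 67.6 scaled TPM in Tfh_OTII and 2.74, 12.4 and 11.5 in Th1_WT. The groups did not overlap (2.77 ± 0.43, adjusted p = 0.000648), and the call held with any 1 library left out. Tfh_WT libraries had 89.1, 80.8 and 57.7, and the difference from Tfh_WT was not called (-0.37 ± 0.43, adjusted p = 0.84). Of 19 tested surface and secreted Tfh genes, Il21 and Slamf6 were called higher and Cd200 and Gpr183 lower, with a median of -0.02 (0.85 as deposited). These are 10.5% in each direction, near the 13.9% higher and 9.62% lower of all genes. The list does not separate genes raised in Tfh cells from genes lowered in them, such as Gpr183. Its counts and median therefore have no expected direction. Slamf6, a co-receptor of contact between lymphocytes, lost its call without Tfh_OTII replicate 2 or 3 (adjusted p of 0.116 and 0.147) and without Th1_WT replicate 1 or 3 (0.128 and 0.0736). Cd200 and Gpr183 had the opposite sign as deposited (0.07 and 0.06), and Cd200 was not called without Tfh_OTII replicate 1, Tfh_OTII replicate 2 or Th1_WT replicate 2.

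The defining Tfh markers were not called. Cxcr5, whose product leads T cells to follicles, had 4.54, 3.75 and 4.12 scaled TPM in Tfh_OTII and 1.6, 4.84 and 3.49 in Th1_WT (0.33 ± 0.30, adjusted p = 0.449). Bcl6, the lineage repressor gene, had 3.16, 3.67 and 4.09 in Tfh_OTII and 3.05, 3.39 and 2.79 in Th1_WT (0.18 ± 0.21, adjusted p = 0.551). Pdcd1, which encodes PD-1, had 8.28, 12.9 and 13.5 in Tfh_OTII and 6.03, 15.7 and 21.4 in Th1_WT (-0.16 ± 0.36, adjusted p = 0.767). Values of all 3 genes overlapped between the groups. Olfactory receptor genes, which are little tied to T cells, were grouped after their values were seen. Of 1092, 445 passed the filter of 1 scaled TPM, as did 19927 of all 35492 symbols. Values as low as those of Cxcr5 and Bcl6 thus need not reflect expression. As deposited, Cxcr5 (1.14, adjusted p = 0.00531) and Bcl6 (0.99, adjusted p = 0.00352) were called higher. The costimulator gene Icos had 18.5, 20.9 and 19.6 in Tfh_OTII and 25.4, 48.4 and 29.5 in Th1_WT, without overlap and without a call (-0.73 ± 0.33, adjusted p = 0.13).

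Among 12 tested transcription factors of the Tfh programme, 2 rose and 3 fell (7 and 0 as deposited, here and below the higher and lower calls without scaling). Tcf7, which encodes TCF1, a factor of early Tfh cells, had 162.2, 208.6 and 250.1 scaled TPM in Tfh_OTII and 83.6, 60.1 and 88.1 in Th1_WT, without overlap (1.41 ± 0.29, adjusted p = 0.00426). Its relative Lef1 had 113.9, 160.1 and 180.9 in Tfh_OTII and 74.5, 73.8 and 73 in Th1_WT (1.00 ± 0.28, adjusted p = 0.0226). The call for Lef1 was lost without Tfh_OTII replicate 2 (adjusted p = 0.0771) or replicate 3 (0.0828). The lower factors were Irf4, Tox and Id3, with 0 lower without Tfh_OTII replicate 1 or Tfh_OTII replicate 2 and 1 lower without Tfh_OTII replicate 3 or Th1_WT replicate 3, and Tox and Id3 had the opposite sign as deposited (0.29 and 0.11). Of 8 factors that restrain Tfh cells, Tbx21 fell and Stat5b rose (1.15 ± 0.31, adjusted p = 0.0181), Stat5b not being called without Tfh_OTII replicate 3, Th1_WT replicate 1 or Th1_WT replicate 2, and 2 fell without Th1_WT replicate 2.

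The STAT3 response list had 6 higher and 1 lower members of 24 (17 and 0 as deposited), with a median of 0.56, and 2 higher without Tfh_OTII replicate 2 or Tfh_OTII replicate 3 and 3 higher without Th1_WT replicate 1. Bcl3, an IκB family coactivator gene, had 40.5, 49.2 and 55.1 scaled TPM in Tfh_OTII and 11.2, 12.5 and 13.8 in Th1_WT (1.86 ± 0.32, adjusted p = 0.00139). All Tfh_OTII libraries were above all Th1_WT libraries, and the call held with any 1 library left out. The lower member, the kinase gene Pim1, lost its call without Tfh_OTII replicate 1 (adjusted p = 0.0591). Il17a, the signature Th17 cytokine gene, had 2.21, 1.12 and 0.663 in Tfh_OTII and was listed at 0 in 2 of 3 Th1_WT libraries, with no call (adjusted p = 0.263). Of 12 Th17 genes, 2 rose, among them Il23r, the gene of an IL-23 receptor chain. Il23r was low, with 1.84, 1.31 and 1.41 in Tfh_OTII and 0.241, 0.722 and 0.153 in Th1_WT (0.89 ± 0.29, adjusted p = 0.0436). Its call was lost without any 1 of the Tfh_OTII libraries and without Th1_WT replicate 1 or 3. In the list, 1 rose without Tfh_OTII replicate 2, Tfh_OTII replicate 3, Th1_WT replicate 1 or Th1_WT replicate 3.

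Socs3, the feedback inhibitor of STAT3 signalling, had 22.1, 31.8 and 34.3 scaled TPM in Tfh_OTII and 4.22, 9.97 and 17.2 in Th1_WT. The groups did not overlap (1.56 ± 0.50, adjusted p = 0.0389), but the call was lost without any 1 of the Tfh_OTII libraries (adjusted p of 0.0579, 0.105 and 0.111), without Th1_WT replicate 1 (0.142) and without Th1_WT replicate 2 (0.0701). Stat3 itself had 121.6, 145.6 and 181.4 in Tfh_OTII and 84.8, 73.1 and 160.8 in Th1_WT, with overlap and no call (adjusted p = 0.255). Gzmb, a granzyme gene that STAT3 can induce, had 336.6, 456.8 and 562.3 in Tfh_OTII and 27.4, 141.9 and 79.1 in Th1_WT (2.69 ± 0.74, adjusted p = 0.0205). Its adjusted p was 0.0583 without Tfh_OTII replicate 2, 0.0685 without Tfh_OTII replicate 3 and 0.0818 without Th1_WT replicate 1.

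The Th1 programme had 8 lower and 2 higher of 29 members, with a median of -0.34 (0.42 as deposited, with 3 lower and 10 higher). Tbx21, which encodes T-bet (chromosome 11, 97098071 to 97115331, minus strand), had 2.65, 3.98 and 5.1 scaled TPM in Tfh_OTII and 18.1, 24.3 and 38.4 in Th1_WT. Every Tfh_OTII library was below every Th1_WT library (-2.47 ± 0.31, adjusted p = 0.000129). Ifng, which encodes IFNγ (chromosome 10, 118441046 to 118445892, plus strand), had 30.9, 30.4 and 53.2 in Tfh_OTII and 104.2, 419.6 and 226.3 in Th1_WT, without overlap (-2.51 ± 0.54, adjusted p = 0.0055). Tnf, an inflammatory cytokine gene, had 12.7, 20.6 and 20 in Tfh_OTII and 51.7, 67.3 and 83.9 in Th1_WT (-1.87 ± 0.28, adjusted p = 0.000482). These 3 genes were called lower as deposited too and with any 1 library left out.

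Lta, the neighbour and relative of Tnf, fell by 1.91 ± 0.38 on the log2 scale and the chemokine gene Ccl4 fell by 2.06 ± 0.46, but neither was called as deposited. Upstream, the IL-12 receptor gene Il12rb2 had 28.7, 37.6 and 40.3 scaled TPM in Tfh_OTII and 11.3, 27.6 and 25.1 in Th1_WT (0.79 ± 0.41, adjusted p = 0.177), and Stat4, which relays IL-12, had 46.3, 59.2 and 67 in Tfh_OTII and 27.8, 67 and 40.5 in Th1_WT (0.42 ± 0.28, adjusted p = 0.3). Neither was called, but both were called higher as deposited (1.85 and 1.51), and Stat4 also without Th1_WT replicate 2 (adjusted p = 0.046). Ifngr1, an IFNγ receptor chain gene, had 48.3, 59.4 and 78.7 in Tfh_OTII and 13.6, 18.5 and 16.2 in Th1_WT (1.87 ± 0.46, adjusted p = 0.012, or 0.0505 without Tfh_OTII replicate 3). The other higher member was the kinase gene Jak2, and the list had 0 higher without Tfh_OTII replicate 3 and 1 higher without Tfh_OTII replicate 2 or Th1_WT replicate 1. Ifng was thus lower in Tfh_OTII and Ifngr1 higher. Ifngr2, another IFNγ receptor chain gene of the list, was not among the higher members.

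**Figure D4:**
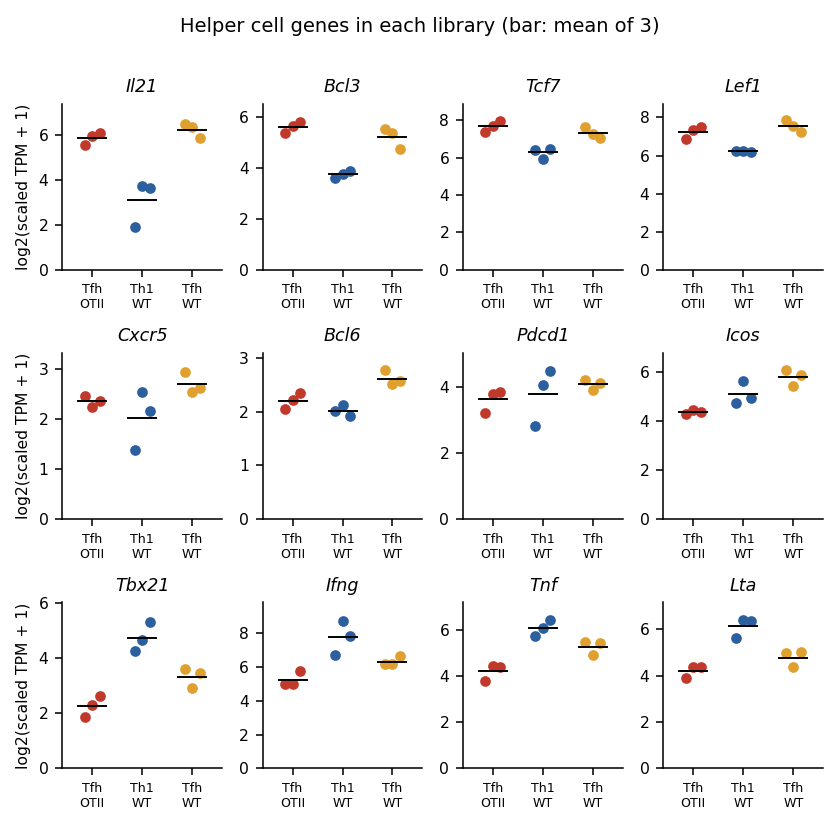
Level of 12 helper cell genes, log2(scaled TPM + 1), in each library of Tfh_OTII, Th1_WT and Tfh_WT (points, with a bar at the mean of 3). Il21, Bcl3, Tcf7 and Lef1 are higher in Tfh_OTII than in Th1_WT, Cxcr5, Bcl6 and Pdcd1 overlap, Icos was not called, and Tbx21, Ifng, Tnf and Lta are lower.

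Of 34 tested interferon gamma response genes, 18 fell in Tfh_OTII and 1 rose, against 9.62% and 13.9% of all genes, with a median of -0.97 (0.09 as deposited, with 5 lower and 8 higher). There were 11 lower without Tfh_OTII replicate 1, and 2 higher without Tfh_OTII replicate 1 or Th1_WT replicate 3. Irgm1, an IFNγ-induced GTPase gene, had 8.94, 10.1 and 11.9 scaled TPM in Tfh_OTII and 33, 75 and 62.2 in Th1_WT, without overlap (-2.28 ± 0.30, adjusted p = 0.000193). Irf8, a transcription factor gene that IFNγ induces, had 17.4, 23.8 and 19.5 in Tfh_OTII and 65.7, 73 and 149.3 in Th1_WT (-2.10 ± 0.30, adjusted p = 0.000385). The GTPase genes Ifi47 and Gbp4 fell by 2.10 ± 0.30 and 1.71 ± 0.22. The chemokine gene Cxcl10 had 0.415, 0.279 and 0.635 in Tfh_OTII and 3.15, 13.2 and 11.3 in Th1_WT (-2.64 ± 0.62, adjusted p = 0.009). These 5 genes were also called lower as deposited. B2m, the light chain gene of MHC class I, fell by 1.60 ± 0.40, with 261.7, 337.2 and 376.1 in Tfh_OTII and 844.1, 1640 and 676.4 in Th1_WT, but was not called as deposited (-0.48, adjusted p = 0.291).

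Not all members were lower. Casp4, an inflammatory caspase gene, rose by 1.47 ± 0.31 (adjusted p = 0.00512), with 40.2, 51.3 and 46.8 scaled TPM in Tfh_OTII and 10.5, 25.9 and 14.6 in Th1_WT. Against Tfh_WT, where IFNγ was blocked as well, 2 of the 34 fell in Tfh_OTII and 0 rose, compared with 1.38% of all genes lower and 0.577% higher. The Irgm and Gbp genes belong to families of similar copies that may share reads.

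The STAT inverted repeat TTCNNNGAA, which reads alike on both strands, was present in 10 of 32 promoters (31.2%) of 27 matched interferon gamma genes, against 7.02% of all promoters. It was present in 1 of 21 promoters (4.76%) of 19 matched genes of the STAT3 list. The promoters of Irf8 (chr8:120736108-120736357, plus strand) and Irgm2 (chr11:58214727-58214976, plus strand), an IFNγ-induced GTPase gene, are shown with the matches in capitals. The last capitals begin 153 bases before the start of Irf8 and 75 bases before that of Irgm2.
Irf8: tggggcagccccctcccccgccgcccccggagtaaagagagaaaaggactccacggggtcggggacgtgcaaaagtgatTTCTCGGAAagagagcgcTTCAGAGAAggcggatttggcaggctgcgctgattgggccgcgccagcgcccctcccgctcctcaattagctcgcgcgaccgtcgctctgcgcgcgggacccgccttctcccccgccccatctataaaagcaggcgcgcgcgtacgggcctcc
Irgm2: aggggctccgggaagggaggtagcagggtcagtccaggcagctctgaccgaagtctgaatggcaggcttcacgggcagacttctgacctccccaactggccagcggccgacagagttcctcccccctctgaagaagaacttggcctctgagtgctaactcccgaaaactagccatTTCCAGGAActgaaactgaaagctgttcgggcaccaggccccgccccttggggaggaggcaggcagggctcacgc
Irgm2 had 5.45, 8.69 and 10.4 scaled TPM in Tfh_OTII and 18.1, 24.8 and 23.2 in Th1_WT (-1.36 ± 0.29, adjusted p = 0.00554), but was not called as deposited (-0.32, adjusted p = 0.413). Its annotated span overlaps Igtp, another GTPase gene on the same strand, so reads could be split between them.

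Type I interferon genes had 4 lower and 0 higher of 28, with a median of -0.26 (0.58 as deposited), and 2 lower and 1 higher without Th1_WT replicate 2. Isg15, a ubiquitin-like protein gene, had 2.63, 1.67 and 2.52 scaled TPM in Tfh_OTII and 13.8, 18.3 and 32.8 in Th1_WT, without overlap (-2.71 ± 0.55, adjusted p = 0.00407). Bst2, the gene of tetherin, which holds virus particles on the cell surface, had 14.3, 13.9 and 12.7 in Tfh_OTII and 61, 82.9 and 115.7 in Th1_WT (-2.54 ± 0.35, adjusted p = 0.000281). Both fell as deposited as well. Chemokine genes had 4 lower and 0 higher of 11 (1 higher without Th1_WT replicate 2). Ccl22, a ligand of CCR4, had 2.41, 2.39 and 1.84 in Tfh_OTII and 8.74, 40.2 and 24.3 in Th1_WT (-2.76 ± 0.44, adjusted p = 0.000837).

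Of 20 targets of the hypoxia-inducible factor HIF, 10 rose and 1 fell (16 and 0 as deposited), against 13.9% and 9.62% of all genes. The median of these targets was 0.96 (2.05 without scaling), and 8 to 10 rose with any 1 library left out. Their summed level was 1061, 1353 and 1421 scaled TPM in Tfh_OTII (lowest, median and highest) and 430.4, 567.1 and 649.8 in Th1_WT. Bnip3, a mitophagy receptor gene, had 104.6, 141.7 and 150.1 in Tfh_OTII and 7.56, 9.06 and 8.38 in Th1_WT, without overlap (3.82 ± 0.45, adjusted p = 9.7e-05). Tfh_WT libraries had 156.6, 136.4 and 90.9 of Bnip3, overlapping Tfh_OTII (0.07 ± 0.45, adjusted p = 0.99 against Tfh_WT). Its relative Bnip3l rose by 3.09 ± 0.32 (adjusted p = 3.57e-05). Egln3, an oxygen-sensing prolyl hydroxylase gene, had 19.5, 23.3 and 24 in Tfh_OTII and 0.673, 4.92 and 6.56 in Th1_WT (2.46 ± 0.44, adjusted p = 0.00174). Vegfa, a well known HIF target, had 22.3, 32.3 and 29.7 in Tfh_OTII and 22.2, 19.2 and 39.1 in Th1_WT, with overlap and no call (adjusted p = 0.868). The member that fell, the oxidase gene Ero1l, lost its call without Tfh_OTII replicate 1, Tfh_OTII replicate 3 or Th1_WT replicate 3 and had the opposite sign as deposited (0.27).

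The core of the hypoxia response element, ACGTG, was present in 14 of 22 promoters (63.6%) of 16 matched hypoxia genes, against 16.6% of all promoters. It is shown in capitals in the promoters of Bnip3 (chr7:138909507-138909756, minus strand) and Egln3 (chr12:54203875-54204124, minus strand). In Bnip3 the 2 matches, on opposite strands, overlap. In Egln3 the match begins 229 bases before the start.
Bnip3: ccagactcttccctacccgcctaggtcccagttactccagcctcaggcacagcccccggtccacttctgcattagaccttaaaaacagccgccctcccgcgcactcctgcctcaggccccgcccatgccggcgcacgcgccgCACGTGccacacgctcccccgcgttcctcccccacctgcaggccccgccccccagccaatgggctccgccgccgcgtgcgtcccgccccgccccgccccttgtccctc
Egln3: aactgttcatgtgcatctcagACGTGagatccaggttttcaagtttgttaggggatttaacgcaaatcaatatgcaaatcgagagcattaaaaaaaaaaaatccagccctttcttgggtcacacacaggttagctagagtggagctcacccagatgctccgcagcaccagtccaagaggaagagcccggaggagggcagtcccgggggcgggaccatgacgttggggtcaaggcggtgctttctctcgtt
Of 20 glycolysis genes, 5 rose and 1 fell (18 and 0 as deposited), with a median of 0.56, and 3 rose without Tfh_OTII replicate 2, Tfh_OTII replicate 3 or Th1_WT replicate 1. The glucose transporter gene Slc2a3 had 53, 54.2 and 70.4 scaled TPM in Tfh_OTII and 13.7, 15.7 and 11.7 in Th1_WT, without overlap (2.03 ± 0.24, adjusted p = 9.99e-05). The hexokinase gene Hk1 rose by 1.41 ± 0.34 (adjusted p = 0.0105). Ldha, a lactate dehydrogenase subunit gene, had 725.9, 863.0 and 1034 in Tfh_OTII and 301.0, 741.8 and 1018 in Th1_WT, with overlap and no call (adjusted p = 0.37). The lower member, the lactate transporter gene Slc16a1, was not called without Tfh_OTII replicate 1, Tfh_OTII replicate 2 or Th1_WT replicate 2 and had the opposite sign as deposited (0.08).

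Amino acid genes under ATF4, the factor of the response to amino acid shortage, had 11 lower and 2 higher of 25. Among all genes, 9.62% were lower and 13.9% higher. The median of the list was -0.81 (0.22 as deposited, with 1 lower and 5 higher), and 8 to 12 fell with any 1 library left out. Chac1, the gene of an enzyme that degrades glutathione, had 2.2, 2.03 and 2.88 scaled TPM in Tfh_OTII and 9.52, 10.8 and 16.7 in Th1_WT, without overlap (-1.96 ± 0.31, adjusted p = 0.000794), and was the member also called lower as deposited. Slc7a5, a chain of the large neutral amino acid transporter, had 23.5, 34.8 and 41.2 in Tfh_OTII and 139.5, 77.7 and 292.9 in Th1_WT (-2.15 ± 0.44, adjusted p = 0.00434). The glutamine transporter gene Slc1a5 and the asparagine synthetase gene Asns fell by 1.59 ± 0.31 and 1.36 ± 0.33. The higher members were Cbs, a gene of cysteine synthesis, and Vldlr, a lipoprotein receptor gene, with 1 higher without Tfh_OTII replicate 1, Tfh_OTII replicate 2, Th1_WT replicate 2 or Th1_WT replicate 3.

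Genes of resting T cells had 6 higher and 3 lower of 23 (16 and 0 as deposited), a median of 0.14, and 5 lower without Th1_WT replicate 2. Igfbp4, an insulin-like growth factor binding protein gene, had 128.9, 179.2 and 254.9 scaled TPM in Tfh_OTII and 32.1, 35.6 and 32.4 in Th1_WT, without overlap (2.40 ± 0.29, adjusted p = 0.000116). Pik3ip1, an inhibitor of PI3 kinase, rose by 1.53 ± 0.27 (adjusted p = 0.0016). Ccr7, whose product brings naive T cells into lymph nodes, had 73.6, 93.4 and 101.9 in Tfh_OTII and 276.0, 242.8 and 289.7 in Th1_WT (-1.59 ± 0.26, adjusted p = 0.00108), but was not called as deposited. S1pr1, the receptor gene for exit from lymph nodes, had 6.7, 9.8 and 11.4 in Tfh_OTII and 2.72, 4.27 and 3.71 in Th1_WT (1.16 ± 0.24, adjusted p = 0.00389). Homing receptors had 3 higher and 3 lower of 21 (10 and 0 as deposited), or 14.3% each, near the 13.9% and 9.62% of all genes.

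Early genes of receptor signalling had 2 higher and 6 lower of 23 (10 and 1 as deposited), with a median of 0.13. Egr3 and Nr4a2, both transcription factor genes induced by the T cell receptor, rose by 1.47 ± 0.27 (adjusted p = 0.00209) and 1.52 ± 0.37 (adjusted p = 0.0105). Cd83, an activation glycoprotein gene, had 2.2, 2.04 and 2.58 scaled TPM in Tfh_OTII and 9.56, 16 and 14.8 in Th1_WT, without overlap (-2.12 ± 0.27, adjusted p = 0.000176), and fell as deposited too. Cd69, an early activation antigen gene, had 104.9, 132.2 and 135.3 in Tfh_OTII and 230.8, 385.1 and 261.3 in Th1_WT (-1.20 ± 0.26, adjusted p = 0.00514), with no call as deposited. Il2, the T cell growth factor gene, had 66.8, 78.1 and 79.6 in Tfh_OTII and 80.2, 336.1 and 165.4 in Th1_WT. The values did not overlap, but Th1_WT spread widely and Il2 was not called (-1.13 ± 0.51, adjusted p = 0.125). Il2ra, its high-affinity receptor chain gene, had 262.9, 362.1 and 393.4 in Tfh_OTII and 198.2, 221.9 and 223.2 in Th1_WT (0.64 ± 0.24, adjusted p = 0.0731), and was called higher as deposited (1.76, adjusted p = 4.26e-05). The IL-2 and STAT5 list had 2 higher and 3 lower of 18 (9 and 0 as deposited), with 0 higher without Tfh_OTII replicate 3, Th1_WT replicate 1 or Th1_WT replicate 2 and 1 higher without Tfh_OTII replicate 2.

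The T cell receptor complex had 5 higher and 1 lower of 20 (15 and 0 as deposited), with a median of 0.36, and 3 higher without Tfh_OTII replicate 2, Tfh_OTII replicate 3 or Th1_WT replicate 1 and 8 higher without Th1_WT replicate 3. Trac, the alpha chain constant gene, had 1327, 1761 and 1925 scaled TPM in Tfh_OTII and 333.9, 459.1 and 533.3 in Th1_WT, without overlap (1.92 ± 0.31, adjusted p = 0.000802). Tfh_WT libraries had 333.5, 217.1 and 257.3 and were also below Tfh_OTII (2.63 ± 0.31, adjusted p = 0.00166 against Tfh_WT). OT-II mice carry an alpha chain transgene, and values per symbol cannot tell its transcripts from those of the native gene. Cd3g and Cd3e, signalling chain genes of the complex, rose by 1.75 ± 0.34 (adjusted p = 0.00301) and 1.26 ± 0.30 (adjusted p = 0.01). The lower member was Cd6, an adhesion receptor gene, with 0 lower without Tfh_OTII replicate 1, Tfh_OTII replicate 2, Th1_WT replicate 2 or Th1_WT replicate 3 and 2 lower without Th1_WT replicate 1. Cd4 had 98.8, 127.0 and 151.0 in Tfh_OTII and 109.4, 135.6 and 345.9 in Th1_WT and was not called (adjusted p = 0.352). Cd8a, which marks cytotoxic T cells, had 4.11, 2.91 and 2.02 in Tfh_OTII and 3.43, 4.01 and 2.57 in Th1_WT, with no call (adjusted p = 0.738).

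Genes of regulatory T (Treg) cells had 4 higher and 0 lower of 20 (15 and 0 as deposited) against Th1_WT, with 2 higher without Tfh_OTII replicate 2, Tfh_OTII replicate 3, Th1_WT replicate 1 or Th1_WT replicate 2. Ctla4, a checkpoint receptor gene, had 99.6, 124.9 and 127.3 scaled TPM in Tfh_OTII and 16.5, 53.3 and 29.8 in Th1_WT, without overlap (1.93 ± 0.42, adjusted p = 0.00573). Nrp1, a co-receptor gene for semaphorins, rose by 1.02 ± 0.26 (adjusted p = 0.0129), but its exons overlap a small RNA gene, so its values are uncertain. Foxp3, the lineage factor gene of Treg cells, had 1.52, 1.74 and 1.57 in Tfh_OTII and 1.15, 1.16 and 2.28 in Th1_WT, with overlap and no call (0.07 ± 0.35, adjusted p = 0.895).

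The Tfh_WT culture stood apart in this list. Foxp3 had 26.1, 11.3 and 24.4 scaled TPM there, and the log2 fold change of Tfh_OTII against Tfh_WT was -2.96 ± 0.35, adjusted p = 0.00166. Nt5e, which encodes the adenosine-forming enzyme CD73, had 2.72, 2.69 and 2.02 in Tfh_OTII, 1.87, 5.02 and 2.67 in Th1_WT and 19, 12.7 and 17.5 in Tfh_WT (-2.31 ± 0.27, adjusted p = 0.00166 against Tfh_WT). Both were called in this contrast with any 1 library left out. In all, 8 of 20 Treg genes fell and 0 rose in Tfh_OTII against Tfh_WT, compared with 1.38% of all genes lower. The count was 3 without Tfh_OTII replicate 1, 2 without Tfh_OTII replicate 3, 4 without Tfh_WT replicate 1 and 2 without Tfh_WT replicate 3. Il10, a suppressive cytokine gene, had 0.68, 1.23 and 0.44 in Tfh_OTII, 0.98, 2.94 and 2.48 in Th1_WT and 12.6, 8.27 and 17.2 in Tfh_WT. Its call against Tfh_WT (-2.91 ± 0.50, adjusted p = 0.0128) was lost without Tfh_OTII replicate 1, Tfh_OTII replicate 3 or Tfh_WT replicate 3 (adjusted p of 0.056, 0.0838 and 0.0914).

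Maf and Ccl1, which are not in the list, were chosen after their values were seen. The transcription factor gene Maf, which promotes Il10 and Il21, had 2.58, 2.84 and 2.1 scaled TPM in Tfh_OTII, 2.68, 3.01 and 2.31 in Th1_WT and 16.7, 11.5 and 20.6 in Tfh_WT. It overlapped between Tfh_OTII and Th1_WT (adjusted p = 0.915), and its call against Tfh_WT (-2.27 ± 0.38, adjusted p = 0.0111) was lost without Tfh_OTII replicate 3 (0.0725) or Tfh_WT replicate 3 (0.0854). The chemokine gene Ccl1 had 1.18, 0.368 and 0.0872 in Tfh_OTII, 3.24, 1.12 and 0 in Th1_WT, where 1 library was listed at 0, and 37.6, 25.6 and 42.6 in Tfh_WT. It was called lower in Tfh_OTII than in Tfh_WT (-4.58 ± 0.54, adjusted p = 0.00166).

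**Figure D5:**
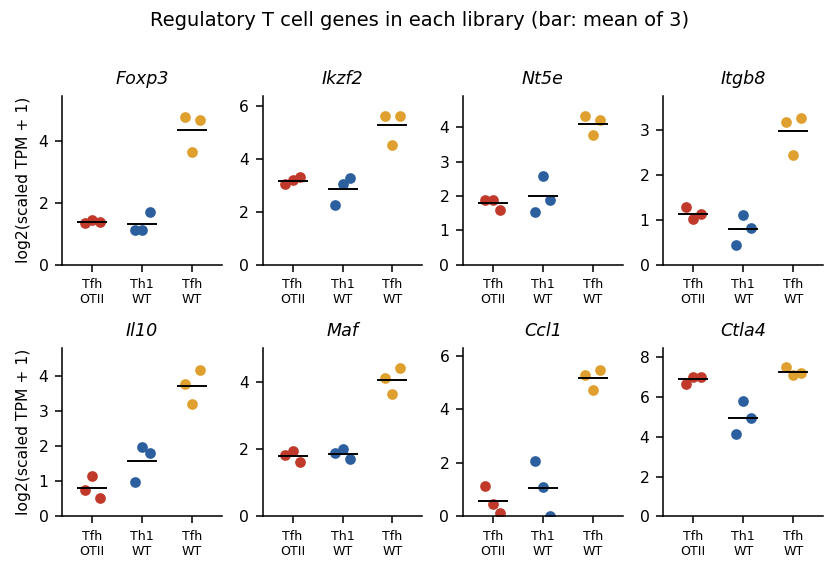
Level of 8 genes of regulatory T cells and related functions, log2(scaled TPM + 1), in each library of Tfh_OTII, Th1_WT and Tfh_WT (points, with a bar at the mean of 3). Foxp3, Ikzf2, Nt5e, Itgb8, Il10, Maf and Ccl1 overlap between Tfh_OTII and Th1_WT and are higher in Tfh_WT, whereas Ctla4 is higher in Tfh_OTII than in Th1_WT.

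Other helper and effector lists were mixed. Th2 genes had 2 higher and 2 lower of 10 (5 and 0 as deposited), with 1 higher without Tfh_OTII replicate 1, Tfh_OTII replicate 2, Tfh_OTII replicate 3 or Th1_WT replicate 1, and 1 lower without Tfh_OTII replicate 1, Tfh_OTII replicate 2, Th1_WT replicate 1 or Th1_WT replicate 3. Gata3, the Th2 lineage factor gene, had 29.3, 34.3 and 34.8 scaled TPM in Tfh_OTII and 15, 14.6 and 27.1 in Th1_WT (0.82 ± 0.26, adjusted p = 0.0375), and lost its call without any 1 of Tfh_OTII replicate 1, Tfh_OTII replicate 2, Tfh_OTII replicate 3, Th1_WT replicate 1 and Th1_WT replicate 2. The list of inhibitory receptors, which also holds ligand genes, had 2 higher and 3 lower of 13 (3 and 0 as deposited). The lower members were Vsir and the PD-1 ligand genes Pdcd1lg2 and Cd274. Cd274, which encodes PD-L1, had 21.3, 28 and 29.3 in Tfh_OTII and 83.3, 83.1 and 72.9 in Th1_WT (-1.58 ± 0.23, adjusted p = 0.000403), and was not called as deposited. The higher ones were Ctla4 and Cd160, a receptor gene of cytotoxic cells, with 1 higher without Tfh_OTII replicate 2, Tfh_OTII replicate 3 or Th1_WT replicate 1. Cytotoxic granule genes had 4 higher and 2 lower of 16 (7 and 0 as deposited), with 1 higher without Tfh_OTII replicate 3 and 2 higher without Tfh_OTII replicate 2 or Th1_WT replicate 1, and 1 lower without Tfh_OTII replicate 1, Tfh_OTII replicate 2 or Th1_WT replicate 2. Crtam, an adhesion receptor gene of cytotoxic cells, rose by 1.60 ± 0.30 (adjusted p = 0.00216).

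Among stress and housekeeping lists, sterol and fatty acid synthesis had 4 higher and 3 lower of 28 (17 and 0 as deposited), with 2 higher without Tfh_OTII replicate 1, Tfh_OTII replicate 2, Tfh_OTII replicate 3 or Th1_WT replicate 1, and with 0 lower without Tfh_OTII replicate 1, 1 lower without Tfh_OTII replicate 2 and 5 lower without Th1_WT replicate 1. The unfolded protein response had 2 higher and 3 lower of 21 (13 and 0 as deposited), with 1 higher without Tfh_OTII replicate 2, Tfh_OTII replicate 3 or Th1_WT replicate 1, 4 higher without Tfh_OTII replicate 1 and 5 higher without Th1_WT replicate 3, and with 1 lower without Tfh_OTII replicate 1 or Tfh_OTII replicate 2. The endoplasmic reticulum chaperone gene Canx had 583.8, 837.7 and 921.9 scaled TPM in Tfh_OTII and 233.9, 246.2 and 307.0 in Th1_WT, without overlap (1.55 ± 0.29, adjusted p = 0.00213). Cytosolic ribosomal protein genes, grouped after their values were seen, had 3 higher and 20 lower of 82 (44 and 2 as deposited), with a median of -0.23 (0.87 as deposited) and 10 lower without Tfh_OTII replicate 1 and 12 lower without Tfh_OTII replicate 2; the higher count was 1 to 6 in those fits. Mitochondrially encoded genes had 2 higher and 0 lower of 13 (9 and 0 as deposited), with 0 higher without Tfh_OTII replicate 2, Tfh_OTII replicate 3 or Th1_WT replicate 3 and 1 higher without Tfh_OTII replicate 1 or Th1_WT replicate 1.

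Heterochromatin genes were listed because of the satellite-like share. Of 22 tested, 8 rose and 2 fell, against 13.9% and 9.62% of all genes. The median of the list was 0.07 (1.06 as deposited), with 1 lower without Tfh_OTII replicate 2, Tfh_OTII replicate 3 or Th1_WT replicate 1. Dnmt1, the maintenance DNA methyltransferase gene, had 298.9, 389.9 and 478.8 scaled TPM in Tfh_OTII and 41.1, 72.9 and 120.9 in Th1_WT, without overlap (2.40 ± 0.34, adjusted p = 0.000385). Hells, a chromatin remodeller that aids DNA methylation, rose by 1.90 ± 0.37 (adjusted p = 0.00319), and Cbx5, which encodes heterochromatin protein HP1α, by 1.70 ± 0.33 (adjusted p = 0.00299). Atrx, a remodeller that helps deposit histones at repeats, had 236.3, 302.7 and 382.1 in Tfh_OTII and 97.5, 90.3 and 141.0 in Th1_WT (1.48 ± 0.25, adjusted p = 0.0013). Smarcad1, a remodeller that helps restore silent chromatin after replication (chromosome 6, 65042583 to 65116061, plus strand), had 38.3, 52.7 and 51.8 in Tfh_OTII and 2129, 1264 and 1389 in Th1_WT, the opposite direction (-5.01 ± 0.36, adjusted p = 2.34e-06). Tfh_WT libraries had 135.6, 105.7 and 135.5 of Smarcad1.

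Some of the large changes were in genes little tied to T cells. Ttyh1, of a family of membrane channels (chromosome 7, 4119408 to 4136708, plus strand), had 1735, 3587 and 2476 scaled TPM in Tfh_OTII and 7.57, 4.1 and 2.73 in Th1_WT (8.83 ± 0.65, adjusted p = 2.74e-06). Ctrc, which encodes the pancreatic protease chymotrypsin C (chromosome 4, 141814962 to 141846359, minus strand), had 3062, 4430 and 4785 in Tfh_OTII and 18.4, 26.6 and 25.6 in Th1_WT (7.37 ± 0.36, adjusted p = 5.91e-08). Both were high in Tfh_WT too, with 4073, 3447 and 4207 for Ttyh1 and 8935, 7774 and 6788 for Ctrc. Xkrx, of the XK family of membrane proteins (chromosome X, 134149043 to 134162076, minus strand), had 4.15, 14 and 3.32 in Tfh_OTII and 1628, 965.6 and 920.9 in Th1_WT (-7.35 ± 0.57, adjusted p = 4.65e-06), with 149.9, 113.4 and 166.1 in Tfh_WT. Lipe, the hormone-sensitive lipase gene, had 6.56, 8.68 and 5.3 in Tfh_OTII and 212.3, 67.1 and 159.3 in Th1_WT (-4.10 ± 0.34, adjusted p = 6.57e-06). The rule that named these 4 genes admits only called genes without overlap between the groups. Their calls held with any 1 library left out. Exons of Tmem38b, Rnf225 and Eny2, whose log2 fold changes were 8.07, 5.55 and 4.98, overlap small RNA genes, so those values are uncertain.

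A few genes were listed at 0 in a whole group. The histone gene Hist1h2ao was listed at 0 in all Th1_WT libraries, with 6.57, 5.24 and 14.6 scaled TPM in Tfh_OTII, and so was the defensin gene Defa17, with 2.55, 1.95 and 2.58 in Tfh_OTII. Rps27rt was listed at 0 in all Tfh_OTII libraries and had 13.6 in 1 Th1_WT library. No fold change is given for them.

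Markers of other cell types moved with the groups. Of 15 tested B cell markers, 9 fell and 0 rose, against 9.62% and 13.9% of all genes. The median of these markers was -0.97 (-0.25 as deposited, with 3 lower and 1 higher), and 7 to 10 fell with any 1 library left out. Their summed level was 59.8, 63.4 and 64.4 scaled TPM in Tfh_OTII (lowest, median and highest) and 217.3, 257.1 and 313.3 in Th1_WT, and none was listed at 0 throughout a group. Igkc, the kappa light chain constant gene, had 6.6, 5.98 and 9.19 in Tfh_OTII and 60.1, 123.9 and 87.2 in Th1_WT (-3.43 ± 0.30, adjusted p = 9.11e-06). Of 15 dendritic and antigen presentation markers, 5 fell and 0 rose, against the same 9.62% and 13.9%. Their sums were 55.8 to 67.3 in Tfh_OTII and 139.6 to 260.6 in Th1_WT. H2-Aa, an MHC class II chain gene, had 2.93, 2.99 and 0.861 in Tfh_OTII and 14.2, 30.6 and 27.9 in Th1_WT (-2.96 ± 0.49, adjusted p = 0.00106). Irf8, Cxcl10, Ccl22, Cd83 and Cd274 are also made by antigen-presenting cells, and the part of such cells in their decrease was not tested. Macrophage, neutrophil, NK, CD8, erythroid and stromal lists had at most 1 member called in each direction with all libraries in the fit, and Lyz2 and Ms4a7 of the macrophage list and Ly6g of the neutrophil list lost their calls in most fits with 1 library left out.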

How the data were processed

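RNA-seq libraries were prepared from total RNA with a stranded, ribosomal RNA-depleted kit and sequenced as paired 75-base reads, per the labels' protocols. The authors deposited 1 table per library with TPM values for 35492 gene symbols. Kallisto and the mm10 build are named in the submitters' processing notes, while the kallisto version, transcript annotation, strand setting and summing to genes are not given in the sources used here. Every TPM column has the same sum and carries no counts, so depth and counting error are unknown, and 0 means only that a gene is listed at 0. The values fix only shares of a library, so a few abundant models lower all other genes.

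Each column was divided by a median-of-ratios size factor over the 17585 genes above 0 in all 12 files. Genes were kept with a mean of at least 1 scaled TPM in Tfh_OTII or Th1_WT, and chromosome Y genes were left out, which left 19927. Log2(scaled TPM + 1) was fitted with limma 3.58.1 in R 4.3.3, using all 12 libraries, a separate mean for each group and a variance trend on expression level, and p-values were adjusted by Benjamini-Hochberg over all genes tested, with calls at an adjusted p under 0.05. The contrasts were Tfh_OTII minus Th1_WT and Tfh_OTII minus Tfh_WT. The scripts were tested on simulated data. Tables were handled in Python 3.11.15 with numpy 2.4.6, pandas 2.3.3 and scipy 1.17.1. Symbols were matched to GENCODE M21 (34769 of 35492, 97.96%), and coordinates are GRCm38.

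The labels do not say that replicates came from separate animals or cultures, so the p-values may rest on technical spread alone. The members and gene lists were chosen with earlier results of these data known. Genes were named by a rule: the 12 highest and 12 lowest called genes with a mean of at least 5 scaled TPM in the higher group, no overlap and values above 0 in at least 2 libraries of each group; per list up to 3 called in each direction, or all where 5 or fewer were called; a fixed set of lineage genes; and up to 5 genes per group listed at 0. Other list members with values were chosen after their values were seen. The alternatives tried were 4 other scalings, another pseudocount, other filters, other sets of genes or libraries in the fit, array quality weights, a replicate block and each library left out in turn. A few genes are counted in their lists but not reported here by name.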

Additional observations from a re-analysis of the deposited data

Results flagged for a closer look

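Genes named for their difference from Th1_WT that also differed between the cultures given the same cytokines were singled out by the contrast of Tfh_OTII with Tfh_WT, tested in the same limma fit. The contrasts share the Tfh_OTII libraries. The log2 fold change of Tfh_OTII against Tfh_WT was -4.36 for Xkrx, -2.65 for Arsb, -1.91 for Cd83, -1.90 for Cxcl9 and 2.63 for Trac, and these calls held with any 1 library left out. It was -2.42 for Slc1a3, -1.95 for Oasl2, -1.57 for Igkc, -1.36 for Lrrc32, -1.21 for Cd274 and -1.19 for Scfd2. The calls of these 6 were lost without Tfh_OTII replicate 1, without Tfh_OTII replicate 3 or without Tfh_WT replicate 3, among others, and the call of Igkc was lost without any 1 Tfh_OTII or Tfh_WT library.

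Chromosome Y genes were outside the test, and their levels differed between the groups. Mean scaled TPM was 28.4 in Tfh_OTII and 1.63 in Th1_WT for Ddx3y, 59.4 in Tfh_OTII and 2.71 in Th1_WT for Eif2s3y, and 23.4 in Tfh_OTII and 9.49 in Th1_WT for Kdm5d. Each Tfh_OTII library was above each Th1_WT library for these 3 genes. Uty had the opposite order, with 28.6 in Tfh_OTII and 86.2 in Th1_WT. Tfh_WT libraries had 0.735, 0.885 and 1.13 for Ddx3y, 0.527, 1.62 and 0.97 for Eif2s3y, and 10.7, 15.7 and 15.8 for Kdm5d. For Uty they had 85.7, 112.7 and 138.6, so these genes differed in the contrast with Tfh_WT too. The labels give no sex, and the part of sex in the other differences was not tested.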

How the results depend on the processing

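Of 140 named genes called against Th1_WT, 74 (45 higher, 29 lower) kept their call in every alternative that gave a value. Among the alternatives run, leaving out the scaling moved the calls against Th1_WT most. As deposited, 10066 genes were called (9783 higher, 283 lower), against 4688 (2772 higher, 1916 lower) with scaling, 27 named genes lost their call and 14 had the opposite sign: Tox 0.29, Id3 0.11, Cd200 0.07, Gpr183 0.06, Stat6 0.40, Nfkbid 0.01, Slc16a1 0.08, Ero1l 0.27, Acaca 0.17, Hspa5 0.18, Hyou1 0.03, Herpud1 0.15, Prdx1 0.01 and Bid 0.27. With only the groups compared in the fit, 2621 were called (1679 higher, 942 lower) and 37 of 140 named genes lost their call. The same restriction gave 554 calls against Tfh_WT, up from 389. The median SD over genes of log2(scaled TPM + 1) was 0.303 in Tfh_OTII, 0.465 in Th1_WT and 0.23 in Tfh_WT. The part of this unequal spread was not tested. Against Th1_WT, leaving out 1 library gave 3036 (without Tfh_OTII replicate 2) to 5172 (without Th1_WT replicate 3) calls, 1916 to 3069 higher and 1120 to 2103 lower.

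Against Tfh_WT, 389 genes were called (115 higher, 274 lower). There were 241 without a filter (69 higher, 172 lower) and 8770 with array quality weights (5075 higher, 3695 lower), whose estimation stopped before convergence. The higher count was 196 as deposited, 67 with equal sums over protein-coding genes (286 lower), 56 with a pseudocount of 0.1, 75 over named protein-coding genes alone and 200 with only the groups compared. That equal-sum scaling moved the median of all genes by -0.124 and the one on genes of at least 10 TPM by -0.133. Leaving out 1 library gave 72 to 633 calls, 27 to 193 higher and 43 to 440 lower: 72 without Tfh_WT replicate 3, 74 without Tfh_OTII replicate 3, 93 without Tfh_WT replicate 2, 136 without Tfh_OTII replicate 1, 182 without Tfh_WT replicate 1 and 633 without Th1_WT replicate 3. Leaving out Tfh_WT libraries was added after seeing the data. Unless stated, the cause was not tested.

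Replicate numbers are shared between groups in the labels. Same-numbered Tfh_OTII and Th1_WT libraries correlated by 0.191, 0.036 and 0.29 in their deviations from the group means. For Tfh_OTII and Tfh_WT the values were -0.478, -0.077 and -0.377. With 3 libraries per group, these values cannot show whether the numbers mark a shared batch. With a replicate block, 4099 genes were called against Th1_WT (2438 higher, 1661 lower) and 76 higher against Tfh_WT, and 14 of 140 named genes lost their call. Unknown depth limits what can be said of genes near 0, where 1 read cannot be told from none.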
